A study of Mus musculus with 16 samples.

Results

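The 10 genes described here are the immediate-early transcription factor genes Egr1, Egr2, Egr3, Nr4a1, Nr4a2, Nr4a3, Fos, Fosb, Jun and Junb, chosen by name out of 55573 gene identifiers in the count table. RNA was sequenced from transferred mouse CD8 T cells that had been sorted out of tumours, in 4 groups of 4 libraries: Foxp3UP with its control MockUP, and Foxp3DN with its control MockDN. The question behind the series is how Foxp3, the factor that defines regulatory T cells, alters CD8 T cells meant for therapy. All groups were OT1 cells of C57BL/6 strain, whose transgenic receptor recognises a peptide of ovalbumin, and were recovered after 5 days by CD8 and by CD45.1 and/or CD90.1 among live cells. Foxp3UP and Mock cells were given to the tumour-bearing mice as a mixture. The labels give neither the meaning of UP and DN, nor the way Foxp3 was introduced, nor the age of the mice. Nothing in the labels says that the replicates came from separate cultures or animals, so p-values measure only the spread between these libraries, which may be technical.

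Immediate-early genes are switched on soon after a stimulus by transcription factors that are already present, without new protein synthesis. In T cells the stimulus is the antigen receptor, acting through calcium and NFAT and through the Ras and MAP kinase pathway to SRF and CREB. EGR proteins are zinc finger factors, NR4A proteins are orphan nuclear receptors, and FOS and JUN proteins pair through leucine zippers to form the factor AP-1. In CD8 T cells that meet antigen for long in a tumour, sustained NR4A and EGR2 expression is known to accompany dysfunction, and AP-1 drives effector cytokine genes.

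Promoters were available in the RefSeq table (GRCm38.p6) for 8 of the 10 members. The 250 bases before the start site are printed for the NR4A family, where CREB-type half-sites were most frequent, and for Fosb and Fos, one of which was called lower in Foxp3UP cells and the other not. Capitals mark each half-site of the cAMP response element, TGACG on either strand (read as CGTCA on the other). The windows are chr15:101266596-101266845 on the plus strand, chr2:57124004-57124253 on the minus strand, chr4:48045055-48045304 on the plus strand, chr7:19310046-19310295 on the minus strand and chr12:85473640-85473889 on the plus strand, written 5′ to 3′.
Nr4a1: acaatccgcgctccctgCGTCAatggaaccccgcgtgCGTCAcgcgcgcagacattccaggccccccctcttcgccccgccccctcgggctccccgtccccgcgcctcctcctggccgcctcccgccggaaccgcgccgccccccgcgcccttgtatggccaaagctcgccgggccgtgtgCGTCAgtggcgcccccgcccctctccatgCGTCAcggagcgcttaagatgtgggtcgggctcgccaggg
Nr4a2: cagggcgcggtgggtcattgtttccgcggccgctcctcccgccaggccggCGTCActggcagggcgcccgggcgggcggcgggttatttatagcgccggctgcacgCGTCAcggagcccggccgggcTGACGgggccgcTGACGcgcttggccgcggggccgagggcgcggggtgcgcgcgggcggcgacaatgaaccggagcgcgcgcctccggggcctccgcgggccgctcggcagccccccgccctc
Nr4a3: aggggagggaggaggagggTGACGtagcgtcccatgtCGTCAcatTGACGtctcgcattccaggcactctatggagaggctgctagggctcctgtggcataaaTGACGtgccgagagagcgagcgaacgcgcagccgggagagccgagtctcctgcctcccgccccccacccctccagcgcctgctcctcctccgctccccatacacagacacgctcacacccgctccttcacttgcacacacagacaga
Fosb: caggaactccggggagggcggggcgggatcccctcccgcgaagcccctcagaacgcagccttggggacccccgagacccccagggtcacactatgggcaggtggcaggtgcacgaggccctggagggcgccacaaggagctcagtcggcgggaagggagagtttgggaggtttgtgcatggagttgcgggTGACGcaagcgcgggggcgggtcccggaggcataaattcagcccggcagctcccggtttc
Fos: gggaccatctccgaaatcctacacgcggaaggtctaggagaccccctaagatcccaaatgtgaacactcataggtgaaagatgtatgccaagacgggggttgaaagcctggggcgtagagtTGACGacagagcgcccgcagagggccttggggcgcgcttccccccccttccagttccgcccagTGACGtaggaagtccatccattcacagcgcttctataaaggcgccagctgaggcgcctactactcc

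Nr4a1, Nr4a2 and Nr4a3 each held 4 half-sites, Fos held 2, Fosb and Junb held 1 each, and Egr2 and Jun held 0. In Nr4a3 they began at -231, -213, -205 and -147 from the start site, and in Nr4a1 at -233, -213, -69 and -40. Of 32851 mouse promoter windows of that length, 0.14% held at least 4 half-sites and 17.8% held at least 1. The half-site was chosen after these sequences were seen, so the share is a description only. An EGR site, GCGNGGGCG on either strand, was in the windows of Nr4a1, Nr4a2 and Fosb, and in 4.7% of all windows. The forkhead motif TGTTTAC, the kind of site FOXP3 can bind, was in the window of Junb only among the 8, and in 3.17% of all windows. None of the 8 windows held the full palindrome TGACGTCA (1.55% of all windows, and it contains the half-site on both strands), the AP-1 motif TGANTCA (6.75%), the NR4A motif AAAGGTCA (1.34%) or the CArG box bound by SRF (1.47%). Sites beyond the 250 bases were not searched, and Egr1 and Egr3 had no promoter entry. The absence of a motif here is therefore no statement on the regulation of the gene.

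Library totals ran between 9389477 and 13226590 counts, and 13711 genes passed the filter on low counts, among them all 10 members. As a check of the labels, Foxp3 averaged 23.6 ± 6.82 CPM in the Foxp3UP libraries and 12.4 ± 1.12 CPM in the MockUP libraries, and 10.3 ± 0.130 CPM in the Foxp3DN libraries and 12.9 ± 1.52 CPM in the MockDN libraries (SD, n = 4 each). CPM is a gene's share of a library's counts in parts per 1000000, scaled between libraries by TMM, the trimmed mean of M-values. Before TMM scaling, Cd8a (720.5 to 1249 CPM) and Cd3e (722 to 845 CPM) were high in every library, and Cd4 did not exceed 8 counts in any. The 12 CD8 T cell markers listed did not all stay level between groups, as given with the markers of other cells. MockUP 2 stood apart from the other libraries on the second principal component (18.6% of the variance), at -52.8. On the first component (34.3%) Foxp3UP 1 was the lowest library, at -49.9, followed by Foxp3UP 2 at -33.5. Values without MockUP 2 are given for the members where they change a call. For the other genes named below, values without MockUP 2 are not given, so their calls may depend on it.

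Most of the immediate-early genes were lower in Foxp3UP than in MockUP cells. In edgeR's fit, 6 of the 10 fell (Egr1, Egr2, Egr3, Nr4a2, Nr4a3 and Fosb), 0 rose, and all 10 had a log2 fold change below 0, with a median of -0.58 against 0.0041 for all genes tested. The threshold for a call was 0.05 on the p adjusted over all genes tested (Benjamini-Hochberg), which 12.1% of all genes passed, 5.99% as lower and 6.08% as higher. The 5 called members other than Egr2 also had every Foxp3UP library below every MockUP library, as did 7.29% of all genes. With each same-numbered pair of libraries as a block, 8 members fell and 0 rose, while 25.3% of all genes were called and 12% were called lower. Without MockUP 2, 4 members remained called (Egr1, Egr3, Nr4a2 and Nr4a3), against 6.97% of all genes called lower. Without Foxp3UP 1, the lowest library for every member, 3 remained called (Egr3, Nr4a2 and Nr4a3). In a fit of only the 8 libraries compared, Egr1, Nr4a2 and Nr4a3 remained called, and Egr2, Egr3 and Fosb did not (edgeR adjusted p of 0.0835, 0.0528 and 0.0839). In these sorted bulk samples, fewer cells with high immediate-early expression and less RNA per cell cannot be told apart.

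**Figure D1:**
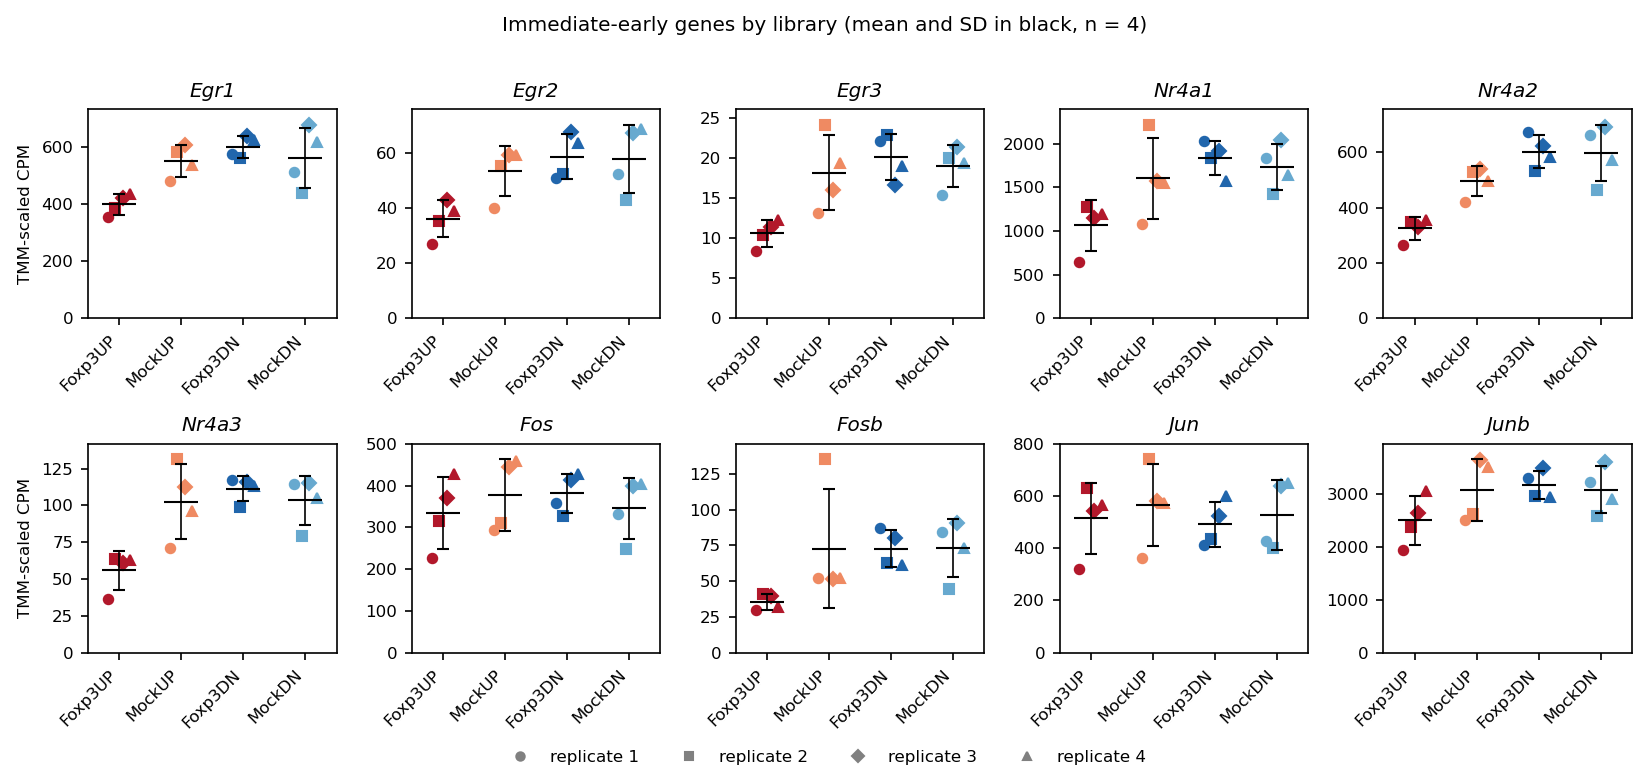
TMM-scaled CPM of each member in each of the 16 libraries (y axes start at 0), with Foxp3UP left of MockUP and Foxp3DN left of MockDN. Black lines are the mean and SD of 4 libraries and symbols are replicate numbers. Egr1, Egr3, Nr4a2, Nr4a3 and Fosb have all Foxp3UP libraries below all MockUP libraries, and replicate 1 of Foxp3UP is the lowest of the 16 libraries for every member.

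Among the EGR factors, Egr1 (18:34859823 to 34864984, mm10), the member that links MAP kinase signals to growth genes, had 353, 385, 420 and 436 CPM in Foxp3UP 1 to 4, against 480, 583, 606 and 537 CPM in MockUP 1 to 4. The Foxp3UP libraries lay below every MockUP library. The log2 fold change was -0.47 ± 0.12 (SE, edgeR adjusted p = 0.0195), a level 1.38-fold lower. The call rested on single libraries: without Foxp3UP 1 or Foxp3UP 2 it was lost, with an edgeR adjusted p of up to 0.0575.

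Egr2 (10:67535475 to 67542188), which together with Egr3 restrains T cell activation and is induced in anergic cells, had 27.1, 35.2, 42.9 and 38.8 CPM in Foxp3UP and 40.0, 55.2, 59.1 and 58.9 CPM in MockUP. The groups overlapped through MockUP 1, the lowest MockUP library, but each Foxp3UP library was below the MockUP library of its own number. Egr2 fell by 0.57 ± 0.17 on the log2 scale (edgeR adjusted p = 0.0417). It was close to the threshold: leaving out 1 library at a time gave edgeR adjusted p between 0.0125 and 0.118, with the call held only without Foxp3UP 3 or without MockUP 1. In the paired fit its edgeR adjusted p was 0.000327.

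Egr3 (14:70077203 to 70082614) was the least abundant member, with 8.37, 10.4, 11.3 and 12.3 CPM in Foxp3UP and 13.2, 24.1, 16.0 and 19.4 CPM in MockUP. Every Foxp3UP library was below every MockUP library, by a narrow margin at MockUP 1. Its log2 fold change was -0.78 ± 0.18 (edgeR adjusted p = 0.00965), and it stayed called when any 1 of the 8 libraries was left out, although not in the fit of only those 8 libraries.

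The NR4A receptors are induced by the antigen receptor in proportion to its signal and bind DNA without a known natural ligand. Nr4a1 (15:101254269 to 101274795), which encodes Nur77, had 640.4, 1280, 1149 and 1195 CPM in Foxp3UP and 1081, 2216, 1573 and 1547 CPM in MockUP. Replicate 1 was low in both groups, so that MockUP 1 lay below 3 of the 4 Foxp3UP libraries. The log2 fold change of -0.59 ± 0.21 was not called (edgeR adjusted p = 0.0762), and with pairs as blocks it was, at the same size (-0.59 ± 0.09, edgeR adjusted p = 0.000523). It was also called when MockUP 1 was left out (edgeR adjusted p = 0.0197).

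Nr4a2 (2:57106830 to 57124003), which encodes Nurr1, had 266, 349, 330.5 and 356 CPM in Foxp3UP and 419, 528, 539 and 497 CPM in MockUP. Its 4 Foxp3UP libraries lay below all MockUP libraries, with Foxp3UP 1 the lowest. The fall was 0.61 ± 0.13 on the log2 scale, or 1.53-fold (edgeR adjusted p = 0.00628).

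Nr4a3 (4:48045153 to 48086447), which encodes NOR1, had 36.3, 63.4, 60.7 and 63.0 CPM in Foxp3UP and 70.9, 132, 112 and 96.0 CPM in MockUP. The groups did not overlap, and replicate 1 was the lowest of each. The log2 fold change of -0.88 ± 0.19 (edgeR adjusted p = 0.00573) was a 1.84-fold lower level. Nr4a2 and Nr4a3 kept their calls in all 8 fits that left out 1 library, and Nr4a3 was the called member with the smallest adjusted p.

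Of the 4 AP-1 genes only Fosb was called. Fosb (7:19302696 to 19310051), a FOS family partner of JUN proteins, had 29.7, 40.7, 39.3 and 32.0 CPM in Foxp3UP and 52.0, 135, 51.4 and 52.1 CPM in MockUP. All Foxp3UP libraries were below all MockUP libraries, and MockUP 2 stood far above the rest. Its log2 fold change was -1.04 ± 0.29 (edgeR adjusted p = 0.0306), a 2.05-fold lower level. Without MockUP 2 the change was -0.55 and the call was lost (edgeR adjusted p = 0.0766), and it was also lost without Foxp3UP 1, 3 or 4.

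Fos (12:85473890 to 85477273), the prototype of its family, had 226, 316, 370 and 429 CPM in Foxp3UP and 294, 312, 444 and 460 CPM in MockUP. Its groups overlapped widely, and the log2 fold change of -0.17 ± 0.20 was not called (edgeR adjusted p = 0.631, 95% interval -0.59 to 0.24). Jun (4:95049034 to 95052222), the main partner of FOS, had 319, 633, 544 and 568 CPM in Foxp3UP and 363, 743, 583 and 576 CPM in MockUP. The log2 fold change of Jun was -0.13 ± 0.23 (edgeR adjusted p = 0.764, 95% interval -0.62 to 0.35), and it was 0.02 without MockUP 2. For both genes the spread within groups was wider than the difference between them.

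Junb (8:84974484 to 84978718), a JUN protein that pairs with BATF and IRF4 in activated T cells, was the most abundant member, at 1943, 2371, 2652 and 3053 CPM in Foxp3UP and 2514, 2624, 3653 and 3509 CPM in MockUP. Replicates 3 and 4 were above replicates 1 and 2 in both groups, and the groups overlapped. Its log2 fold change of -0.30 ± 0.15 was not called (edgeR adjusted p = 0.229), but in the paired fit the same change passed (edgeR adjusted p = 0.00650). Jun shares exonic bases with Junos, and Junb with Prdx2, both genes on the opposite strand, and no label states whether counting used strand. Junos differed by 0.02 and Prdx2 by 0.17 on the log2 scale between Foxp3UP and MockUP, neither called (edgeR adjusted p of 0.974 for Junos and 0.418 for Prdx2).

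The same-numbered pairs showed the direction library by library. Of 40 pair differences in the UP arm (10 members in 4 pairs), 39 were below 0, the exception being Fos in pair 2 at 0.02. The other 9 members were lower in Foxp3UP in all 4 pairs, as were 17.7% of all genes tested. The median over members was -0.60, -0.62, -0.46 and -0.43 in pairs 1 to 4, while the median of all genes lay between -0.0039 and 0.0288. Nr4a3 differed by -0.96, -1.05, -0.89 and -0.61 in pairs 1 to 4 and Nr4a2 by -0.66, -0.60, -0.71 and -0.48. Fosb was uneven, with -1.73 in pair 2 and -0.38 in pair 3.

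**Figure D2:**
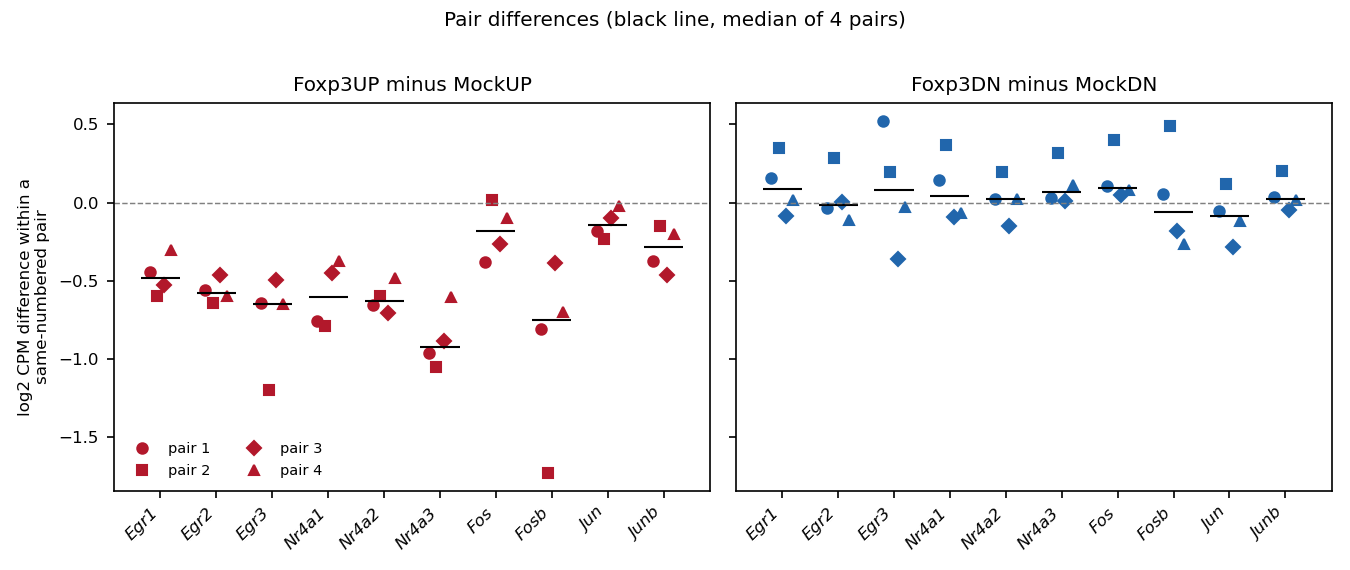
Difference in log2 CPM within each same-numbered pair of libraries, Foxp3UP minus MockUP at left and Foxp3DN minus MockDN at right, for each member. Symbols are pairs and black lines are medians of 4 pairs. In the UP arm 39 of 40 differences lie below 0, and in the DN arm 14 lie below and 26 above.

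By the sample numbers in the titles, replicates 1 and 2 come ahead of replicates 3 and 4 in every group, and both sets were also tested alone. In replicates 3 and 4 alone, 8 members were called lower in Foxp3UP, among 12% of all genes called lower: the 6 above, Nr4a1 at -0.43 (edgeR adjusted p = 0.00793) and Junb at -0.35 (edgeR adjusted p = 0.0343). In replicates 1 and 2 alone 0 members and 0.221% of all genes passed (edgeR adjusted p of 0.158 or more for the members), although the changes of Egr1 (-0.53), Egr2 (-0.61), Egr3 (-0.99), Nr4a1 (-0.78), Nr4a2 (-0.63), Nr4a3 (-1.02) and Fosb (-1.41) were as large or larger there. In 35 of 40 combinations of member and group, replicates 1 and 2 averaged below replicates 3 and 4. The members vary together in the same libraries, so these are not 40 independent values. The difference in level between the sets was not tested, and the share of all genes with this direction was not taken. Proliferation genes ran the other way, with a mean log2 deviation of 1.24 and 0.80 in Foxp3UP 1 and 2 and -0.38 and -0.26 in Foxp3UP 3 and 4, and likewise 1.22 and 0.44 in MockUP 1 and 2 and -0.49 and -0.44 in MockUP 3 and 4. None of the 16 proliferation genes was called between Foxp3UP and MockUP without pairs, and 3 rose with pairs as blocks. The shares of all genes called were 12.1% without pairs and 25.3% with them. For the difference between the arms 6 were called higher with pairs as blocks and 0 without, against 12.7% and 1.83% of all genes called. Between Foxp3UP and Foxp3DN 13 rose with the replicate number as a block and 0 without. Of all 13711 genes, 2755 were called there with that block and 1616 without. The part of proliferation or of the sets in the members' levels was not tested.

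Per kilobase of exon, which allows genes to be compared, Junb ranked first and Egr3 last of the 10 in all 4 groups, with Nr4a1 second. Junb stood at 1089 ± 203 CPM per kb in Foxp3UP and 1336 ± 256 in MockUP, and Nr4a1 at 304 ± 82.4 in Foxp3UP and 457 ± 133 in MockUP (SD, n = 4 each). A middle tier followed in MockUP of Jun (177.5 ± 48.9), Fos (160.4 ± 36.8), Egr1 (123 ± 12.4) and Nr4a2 (122 ± 13.3), in which Jun and Fos, and Egr1 and Nr4a2, differed by less than their SDs. Nr4a3 (17.1 ± 4.29), Egr2 (15.7 ± 2.67), Fosb (11.7 ± 6.69) and Egr3 (4.12 ± 1.07) were the low tier. Over all libraries Junb was at the 99.9th percentile of genes tested in CPM per kb and Egr3 at the 42.8th. Together the 10 genes took 0.382 to 0.596% of all counts in Foxp3UP libraries and 0.549 to 0.777% in MockUP libraries. Of the members' summed CPM per kb, Junb made up 57.7 ± 3.20% in Foxp3UP and 55.1 ± 5.89% in MockUP, while Nr4a3 made up 0.490 ± 0.048% in Foxp3UP and 0.705 ± 0.129% in MockUP.

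In the DN arm, where Foxp3 RNA itself was not raised over the control, no member was called. Between Foxp3DN and MockDN 0 of 10 were called in edgeR, 0 had an unadjusted p under 0.05 and DESeq2 called 0. Of all genes, 0.00729% (1 gene) were called and 1.04% had an unadjusted p under 0.05. Nr4a3 had 117, 99.0, 116 and 114 CPM in Foxp3DN and 115, 79.3, 115 and 105 CPM in MockDN. Egr1 had 574, 560, 637 and 624 CPM in Foxp3DN and 513, 439, 676.5 and 616 CPM in MockDN. Both genes overlapped between the groups, as did the other 8, where 1.15% of all genes had no overlap. The log2 fold changes ranged between -0.10 for Jun and 0.14 for Fos, with a median of 0.06. The 95% interval was -0.28 to 0.49 for Nr4a3, -0.26 to 0.29 for Nr4a2, -0.17 to 0.35 for Egr1 and -0.62 to 0.60 for Fosb, and in each the lower bound was above the UP-arm change of the same gene. For Fosb that rested on MockUP 2, without which the UP-arm change was -0.55, inside the DN interval. The UP-arm changes of Fos (-0.17) and Jun (-0.13) also lay inside their DN intervals (-0.27 to 0.55 for Fos, -0.59 to 0.38 for Jun). Such a reading leaves out the spread of the UP-arm change itself.

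The difference between the UP and DN effects was tested directly. All 10 differences were below 0, with Nr4a3 at -0.98 ± 0.26, Egr3 at -0.87 ± 0.25, Nr4a1 at -0.67 ± 0.29, Nr4a2 at -0.62 ± 0.19, Egr2 at -0.59 ± 0.24 and Egr1 at -0.56 ± 0.17. Fosb was at -1.03 ± 0.41, and at -0.54 without MockUP 2. In edgeR's fit without pairs 0 of 10 were called, where 1.83% of all genes passed, and the smallest adjusted p was that of Nr4a3 (edgeR adjusted p = 0.0631). Unadjusted, 7 members and 15.6% of all genes had p under 0.05. DESeq2 called 4 members (Egr1, Egr3, Nr4a2 and Nr4a3) and 5.38% of all genes. With the replicate number alone as a block 4 members were called, against 5.91% of all genes. With pairs as blocks 8 members were called, against 12.7% of all genes. They were led by Nr4a3 (-0.996 ± 0.114, edgeR adjusted p = 0.000237) and Nr4a2 (-0.63 ± 0.09, edgeR adjusted p = 0.00106), and only Fos (edgeR adjusted p = 0.0624) and Jun (edgeR adjusted p = 0.789) did not pass.

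**Figure D3:**
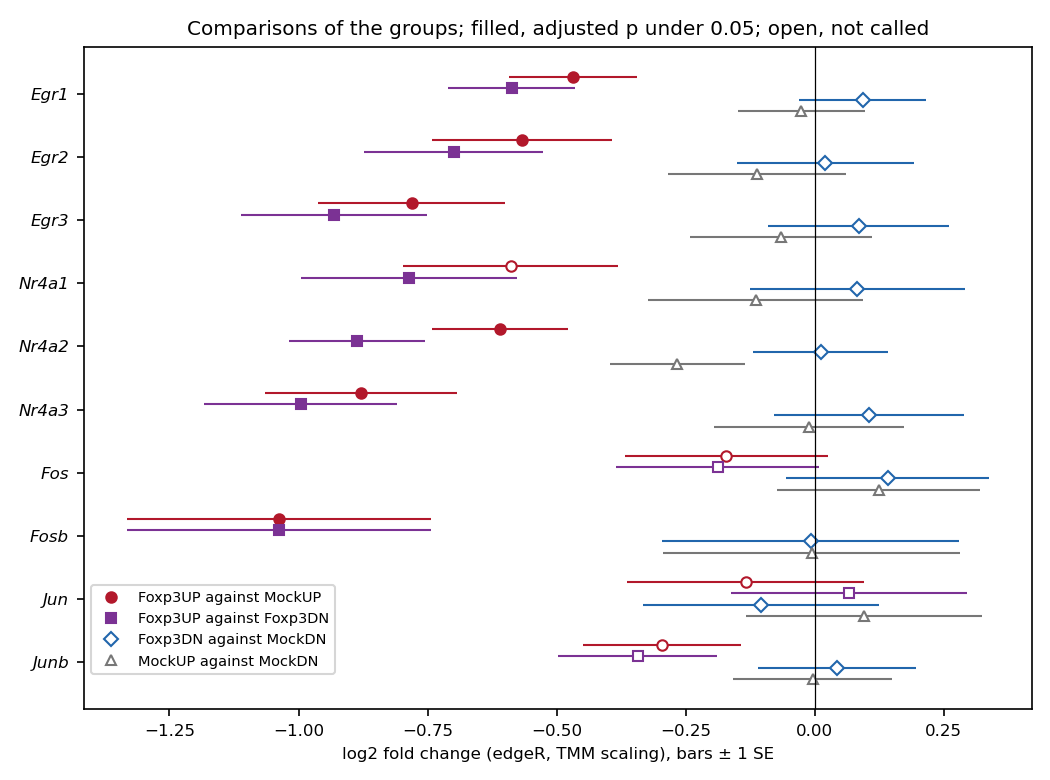
Log2 fold change of each member (x axis) with bars of 1 SE, in 4 comparisons of the groups, from edgeR's fit of all 16 libraries. Filled symbols passed an adjusted p under 0.05. The Foxp3UP comparisons lie below 0 for Egr, Nr4a and Fosb, and Foxp3DN against MockDN and MockUP against MockDN lie around 0 with open symbols throughout.

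No member was called between the controls of the arms. Between MockUP and MockDN 0 members were called in edgeR (0.00729% of all genes), 0 had an unadjusted p under 0.05 (3.16% of all genes), DESeq2 called 0, and every member overlapped (1.85% of all genes had no overlap). Nr4a2 differed most, at 496 ± 54.1 CPM in MockUP and 596 ± 102 CPM in MockDN, a log2 fold change of -0.27 ± 0.13 (edgeR adjusted p = 1.00, 95% interval -0.54 to 0.0094). Set against Foxp3DN, Foxp3UP cells were lower in 7 of 10 members (edgeR), among 11.8% of all genes called and 5.78% called lower, and these 7 had no overlap between libraries, against 11.2% of all genes with all Foxp3UP libraries lower. They were Nr4a2 at -0.89 ± 0.13 (edgeR adjusted p = 0.000476), Nr4a3 at -0.996 ± 0.187, Egr3 at -0.93 ± 0.18, Egr1 at -0.59 ± 0.12, Egr2 at -0.70 ± 0.17, Nr4a1 at -0.79 ± 0.21 and Fosb at -1.04 ± 0.29. Nr4a2 averaged 325 ± 41.0 CPM in Foxp3UP and 601 ± 59.9 CPM in Foxp3DN. The calls of Nr4a1 and Fosb depended on single libraries: Nr4a1 lost its call without Foxp3UP 1 or Foxp3DN 3, and Fosb kept its call only without Foxp3DN 2 or Foxp3DN 4 (edgeR adjusted p between 0.0355 and 0.0944). Foxp3UP libraries take part in this comparison and in that with MockUP, so the sets of calls are not independent.

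The members varied together to different degrees. Over the 16 libraries, log2 CPM of Egr1 and Egr2 correlated at 0.95 (Pearson), of Nr4a1 and Nr4a3 at 0.95 and of Nr4a2 and Nr4a3 at 0.94. Taken within groups, these were 0.90, 0.93 and 0.89. Fos followed Egr2 (0.88 within groups) and Junb (0.87) more than it followed its paralogue Fosb (0.08 within groups, 0.22 over all libraries). Nr4a2 and Jun stood at 0.27 over all libraries and 0.63 within groups. These values are descriptions over libraries that share pairs and sets of replicates. The spread within groups of Fosb was at the 83.6th percentile of all genes and that of Jun at the 75.4th, whereas Egr1 (27.3) and Nr4a2 (33.0) were among the steadier genes.

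Other genes of the response were read from lists. Beside them, 5.99% of all genes tested were called lower and 6.08% higher between Foxp3UP and MockUP. With pairs as blocks 25.3% were called, and 12% were called lower. Of 11 further AP-1 and bZIP partners tested, 1 fell and 0 rose between Foxp3UP and MockUP, with a list median of -0.23. The one was Mafk, a small MAF protein, at 177 ± 18.2 CPM in Foxp3UP and 270 ± 32.7 CPM in MockUP (log2 fold change -0.61, edgeR adjusted p = 0.0138). With pairs as blocks 5 fell and 3 rose, and one that rose was Batf, a JUNB partner, at 0.45 (edgeR adjusted p = 0.00662). Of 22 other rapid-response genes 3 fell and 1 rose (12 and 3 with pairs as blocks), and 18 were below 0, with a median of -0.40. Myc, the growth regulator, had 322 ± 70.5 CPM in Foxp3UP and 572 ± 155 CPM in MockUP (edgeR adjusted p = 0.00684), and Zfp36l1, which promotes decay of AU-rich mRNAs, 46.2 ± 8.47 CPM in Foxp3UP and 72.0 ± 18.1 CPM in MockUP (edgeR adjusted p = 0.0193). Klf6, a zinc finger factor, rose, at 1069 ± 86.7 CPM in Foxp3UP and 813 ± 52.7 CPM in MockUP (edgeR adjusted p = 0.0197).

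Regulators around these genes were read beside the same shares of all genes, 5.99% lower and 6.08% higher. With pairs as blocks these were 25.3% called and 12% called lower. Of 23 upstream regulators tested 1 rose and 0 fell, with a median of 0.02: Elk3, a ternary complex partner of SRF, at 92.7 ± 10.9 CPM in Foxp3UP and 71.9 ± 7.51 CPM in MockUP (edgeR adjusted p = 0.0497). Of 20 feedback inhibitors, which damp receptor and cytokine signals, 1 fell and 0 rose, with a median of -0.19. It was Socs1, the JAK-STAT inhibitor, at 67.1 ± 6.65 CPM in Foxp3UP and 88.8 ± 12.1 CPM in MockUP (edgeR adjusted p = 0.0154). With pairs as blocks 6 inhibitors fell, and 3 upstream regulators rose and 4 fell. In the DN arm 0 genes of any of these lists were called by edgeR, with or without the block.

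Genes known as readouts of activation moved both ways. Among all genes tested, 5.99% fell and 6.08% rose between Foxp3UP and MockUP, and with pairs as blocks 25.3% were called, 12% as lower. Of 19 tested, 4 fell and 1 rose between Foxp3UP and MockUP (8 and 3 with pairs as blocks), with a median of -0.44. Cd40lg, a helper ligand, had 6.93 ± 1.96 CPM in Foxp3UP and 16.4 ± 4.61 CPM in MockUP (edgeR adjusted p = 0.00140), and Tnfsf8, the CD30 ligand, 18.4 ± 7.25 CPM in Foxp3UP and 70.1 ± 27.3 CPM in MockUP (edgeR adjusted p = 0.00265). Tnfrsf4, which encodes the costimulatory receptor OX40, rose, at 299 ± 60.9 CPM in Foxp3UP and 144 ± 35.4 CPM in MockUP (edgeR adjusted p = 0.000855). Of 14 tolerance and exhaustion genes that earlier work links to NR4A or EGR factors, 4 rose and 0 fell, with a median of 0.27. They included Ctla4, the inhibitory receptor, at 1866 ± 260 CPM in Foxp3UP and 926 ± 120 CPM in MockUP (edgeR adjusted p = 0.000107), Havcr2, which encodes TIM-3, at 347 ± 40.6 CPM in Foxp3UP and 235 ± 28.5 CPM in MockUP, and Dgka, a diacylglycerol kinase that blunts Ras signalling, at 443 ± 38.4 CPM in Foxp3UP and 337 ± 42.2 CPM in MockUP. With pairs as blocks 6 rose and 2 fell in that list. The UP and DN effects differed for Tnfrsf4 (edgeR adjusted p = 0.0113), Cd40lg (edgeR adjusted p = 0.0264), Tnfsf8 (edgeR adjusted p = 0.0484) and Ctla4 (edgeR adjusted p = 0.00612). With pairs as blocks, 3 activation genes had a higher and 6 a lower UP effect, and 3 tolerance genes a higher one. The share of all genes called for this difference was 12.7% with pairs as blocks and 1.83% without.

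**Figure D4:**
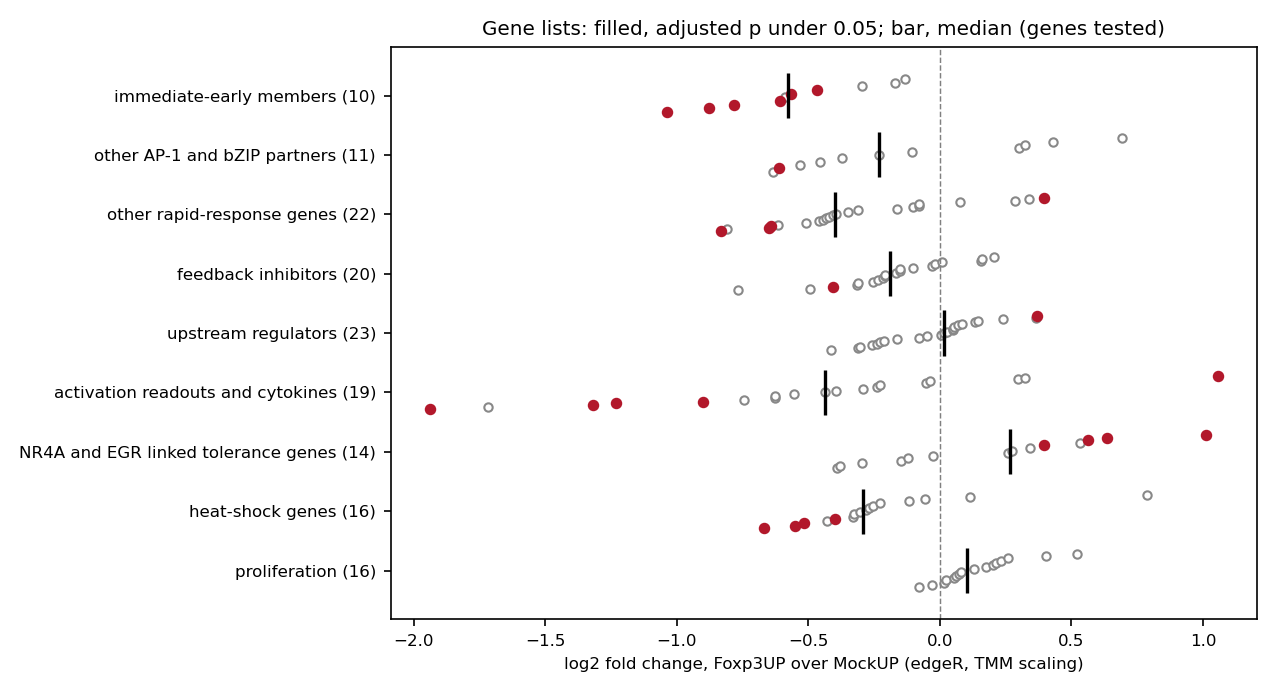
Log2 fold change of Foxp3UP over MockUP for every tested gene of the immediate-early members and 8 other lists, with list sizes in brackets. Red points passed an adjusted p under 0.05 and black bars are list medians. The members have 6 red points and all 10 below 0, while the tolerance list has its 4 red points above 0.

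Tissue handling can raise immediate-early and heat-shock genes together, so heat-shock genes were measured too. Among all genes tested, 5.99% fell between Foxp3UP and MockUP, and 12% with pairs as blocks. Of 16 tested, 4 fell and 0 rose between Foxp3UP and MockUP (10 fell with pairs as blocks), with a median of -0.29, and their summed level was 8271 to 9602 CPM in Foxp3UP libraries and 9821 to 12200 CPM in MockUP libraries. Hsf1, the master factor of the heat-shock response, had 88.4 ± 8.39 CPM in Foxp3UP and 140 ± 15.9 CPM in MockUP (edgeR adjusted p = 0.00135), Hspd1, a mitochondrial chaperonin, 377 ± 12.3 CPM in Foxp3UP and 552 ± 52.5 CPM in MockUP, and Dnajb4, a co-chaperone, 44.8 ± 5.61 CPM in Foxp3UP and 64.0 ± 5.58 CPM in MockUP. The stress-inducible Hspa1a (-0.30, edgeR adjusted p = 0.444) and Hspa1b (-0.33, edgeR adjusted p = 0.305) were not called. The heat-shock sum was 11160 to 13780 CPM in Foxp3DN and 10520 to 13420 CPM in MockDN. Between Foxp3UP and Foxp3DN, where 7 members fell, 10 of the 16 heat-shock genes fell (12 with the replicate number as a block). There 5.78% of all genes fell, and with that block 2755 of 13711 were called in either direction. For the difference between the arms 0 were called without pairs and 8 were lower with pairs as blocks, against 1.83% and 12.7% of all genes called. The part of sample handling in the members' levels was not tested.

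Some markers of other cells moved with the groups. Apart from Ighm, the highest of them was Pecam1, at up to 72.2 CPM before TMM scaling. The sum of 11 macrophage and monocyte markers was 53.5 to 76.6 CPM in Foxp3UP, 37.2 to 56.8 in MockUP, 39.4 to 62.2 in Foxp3DN and 39.6 to 48.1 in MockDN, and of these Cd68, a lysosomal protein, rose in Foxp3UP against MockUP (log2 fold change 0.86, edgeR adjusted p = 0.00207). With pairs as blocks Cd14 rose as well (log2 fold change 0.95, edgeR adjusted p = 0.0189). The sum of 7 melanocyte markers was 63.1 to 145 CPM in Foxp3UP, 63.4 to 95.3 in MockUP, 37.0 to 82.6 in Foxp3DN and 23.1 to 74.2 in MockDN, with none called in Foxp3UP against MockUP without pairs and 1, Mlana, higher with pairs as blocks (log2 fold change 0.63, edgeR adjusted p = 0.0477). The sum of 7 B cell markers was 281 to 357 CPM in Foxp3UP, 129 to 206 in MockUP, 167 to 204 in Foxp3DN and 168 to 199 in MockDN. Nearly all of it was Ighm, the heavy chain of IgM, which rose (log2 fold change 0.85, edgeR adjusted p = 0.000741), while Ms4a1 and Pax5 were at 0 in all libraries. Neutrophil markers summed to at most 1.76 CPM and erythroid markers to at most 2.82 CPM in any library. The part of these cells in the members' values was not tested. Of the 12 CD8 T cell markers 1 rose and 0 fell between Foxp3UP and MockUP, and 4 rose and 0 fell with pairs as blocks. Cd2 averaged 909 ± 124 CPM in Foxp3UP and 597 ± 167 CPM in MockUP. The 1 CD4 T cell marker tested, Zbtb7b, was called only with a block, at 10.4 ± 1.91 CPM in Foxp3UP and 6.79 ± 0.868 CPM in MockUP. Beside these, 12.1% of all genes were called, and 25.3% with pairs as blocks.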

How the data were processed

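RNA counts came from 16 libraries of mouse CD8 T cells, 4 in each of 4 groups. The deposited values are raw counts of reads per gene in a single table, with gene positions and exonic lengths beside them per the file headers. STAR 2.6.1 and Subread 1.6.3 were used with the build mm10, per the submitters' processing notes. Neither the options of counting, strand included, nor the annotation used is stated there. Columns were matched to samples by the sample number in each title. Symbols came from GENCODE release M21, which gave one to 55394 of 55573 identifiers.

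Genes were kept by filterByExpr of edgeR (minimum count 10), which left 13711. After TMM scaling, edgeR 4.0.16 (R 4.3.3) gave p-values from quasi-likelihood F tests (two-sided, robust fit) in which all 16 libraries entered with 1 mean for each group, with Benjamini-Hochberg adjustment over all genes. The standard error is the log2 fold change over the root of F, without sign, and the 95% intervals use it with the fit's degrees of freedom. Correlations used log2 CPM with a prior count of 2. DESeq2 1.42.0 was an alternative, beside other scalings, filters, library sets and the replicate block. Steps were tested on simulated data. For Foxp3UP against MockUP, 28.4% of 1.5-fold and 67.2% of 2-fold changes were recovered there. These shares were 22.7% and 62.1% for Foxp3DN against MockDN, and 6.06% and 44.6% for the difference between the arms. A gene that was not called may therefore still have changed by such an amount. Library totals of 9389477 to 13226590 counts set the precision, and levels are means ± SD of 4 libraries.

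The members and the gene lists were chosen with earlier results of these data known, so counts over them are descriptions, and no set test was run. Named genes are all members, up to 3 called genes per list and comparison with the smallest adjusted p, and the 8 genes whose levels followed the members most closely. Other genes, such as Batf, Cd14, Mlana, Hspa1a and Hspa1b, were named after their values were seen. Mkl1 and Mkl2 had no row under those symbols.

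The titles number the replicates, and libraries with the same number in an arm deviated together from their group means, with correlations of 0.63, 0.21, 0.30 and 0.40 for pairs 1 to 4 of the UP libraries and of 0.36, 0.58, 0.55 and 0.30 for those of the DN libraries. All were over 0.1, so the numbers were taken to pair the samples within an arm and the paired fit is given beside the members' results and the list counts of Foxp3UP against MockUP. Different numbers within a set of replicates also passed 0.1, at up to 0.364 (Foxp3UP 4 with MockUP 3) and 0.237 (Foxp3DN 3 with MockDN 4). Between arms, MockUP 1 correlated at 0.594 with MockDN 2 and at 0.185 with MockDN 1. Whether true pairs or the 2 sets of replicates gave these values was not tested, so the paired fit rests on an assumption. Promoter windows are the 250 bases before the RefSeq start site (GRCm38.p6, the assembly of mm10).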

Additional observations from a re-analysis of the deposited data

Results flagged for a closer look

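In Foxp3UP, Nr4a3 was at 36.3 CPM in replicate 1, far below the other 3 libraries at 60.7 to 63.4 CPM. In MockUP, Fosb was at 135 CPM in replicate 2, far above the other 3 at 51.4 to 52.1 CPM. In each case the gap to the nearest library took most of the group's range (a ratio of 0.897 for Nr4a3 and 0.991 for Fosb, above Dixon's 95% limit for 4 samples). Over the 40 groups of 4 values examined, chance alone gives such a gap in about 1 in 20. Fosb in Foxp3UP against MockUP was not called without MockUP 2, at a log2 fold change of -0.55 (edgeR adjusted p = 0.0766), and Nr4a3 was called without either library.

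For Nr4a3 all 4 pair differences were below 0 in the UP arm and all 4 above 0 in the DN arm, where the gene was not called and the groups overlapped. The difference of effects was -0.98 on the log2 scale (edgeR adjusted p = 0.0631, and 0.000237 in edgeR's paired fit). The DN pair differences of Nr4a3 were small, between 0.01 and 0.32. Fos also had all 4 DN differences above 0, between 0.05 and 0.40. The share of all genes with pairs of opposite sign in the arms was not taken.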

How the results depend on the processing

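No result changed direction past its threshold under any setting run. Members called in Foxp3UP against MockUP numbered 6, and 3 with only the libraries compared, 0 in replicates 1 and 2 alone and 3 to 7 when 1 library was left out (3 without Foxp3UP 1). For Foxp3UP against Foxp3DN they numbered 7, 0 in replicates 1 and 2 and 5 to 7 without 1 library. For the difference of effects they numbered 0, and 4 with DESeq2, 1 with library totals, 4 in replicates 3 and 4 and 0 to 3 without 1 library. With the 4-level replicate block 4 were called, and 8 with the replicate block within arms.

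Genes called in Foxp3UP against MockUP numbered 1654, and 658 with only the libraries compared, 3475 with the replicate block within arms, 31 in replicates 1 and 2, 3025 in replicates 3 and 4 and 1064 to 1978 without 1 library. For Foxp3UP against Foxp3DN they numbered 1616, and 2492 with only the libraries compared, 2755 with the replicate block, 130 in replicates 1 and 2, 3440 in replicates 3 and 4 and 842 to 1477 without 1 library. For the difference of effects they numbered 251, and 666 with DESeq2, 811 with the replicate block, 1739 with the block within arms, 2 in replicates 1 and 2, 1688 in replicates 3 and 4 and 99 to 518 without 1 library. Foxp3DN against MockDN gave 1, with 0 in replicates 1 and 2 and 3 in replicates 3 and 4. MockUP against MockDN gave 1, with 10 in DESeq2, 2 with no filter, 35 in replicates 3 and 4 and 1 to 2 without 1 library. Fits on fewer libraries estimate the spread from fewer values. The cause of the other shifts was not tested. Depth limits Egr3 most, with 3022 counts over all libraries.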

Other observations

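The genes whose log2 CPM followed the mean standardised level of the 10 members most closely over the 16 libraries were Top1, a DNA topoisomerase (Pearson r = 0.98), Irf2bp2, a transcriptional cofactor (0.98), Eif5, a translation initiation factor (0.97), Rbm26 (0.97), Dvl1 (0.97), Atad3a, a mitochondrial membrane ATPase (0.96), Grasp (0.96) and Slc7a6, an amino acid transporter (0.96). They were taken from 8368 genes with a mean log2 CPM of at least 3, and correlations within groups were between 0.91 and 0.97. Of the 8, Irf2bp2 (log2 fold change -0.83, edgeR adjusted p = 0.0128), Eif5 (-0.41, edgeR adjusted p = 0.0305), Atad3a (-1.01, edgeR adjusted p = 0.00599), Grasp (-0.66, edgeR adjusted p = 0.0233) and Slc7a6 (-0.55, edgeR adjusted p = 0.00809) fell in Foxp3UP against MockUP. Top1, Rbm26 and Dvl1 were not called, at -0.27, -0.40 and -0.53. The 8 were chosen for following a level that was itself mostly lower in Foxp3UP, so their fall is partly fixed by that choice. Their adjusted p are therefore no separate evidence. Of all genes tested, 5.99% were called lower. The libraries also share pairs and sets of replicates, so these values are descriptions.

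The mean standardised level of the members was -2.18, -0.86, -0.71 and -0.54 in Foxp3UP 1 to 4 and -0.76, 0.73, 0.52 and 0.43 in MockUP 1 to 4. It was 0.53, 0.21, 0.73 and 0.55 in Foxp3DN 1 to 4 and 0.28, -0.55, 1.01 and 0.62 in MockDN 1 to 4. Foxp3UP 1 was the lowest library for all 10 members, and MockUP 1 lay close to Foxp3UP 2 to 4.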
